A study of Mus musculus with 2 samples.

Results

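The 8 genes described here carry out the storage, import, export and release of iron: Fth1, Ftl1, Slc11a1, Slc40a1, Hmox1, Tfrc, Cp and Trf. They were picked by symbol from the 31053 genes of the feature table, and all 8 were present. Transcripts were counted in single cells that had been sorted from mouse brain as microglia, the resident macrophages of that tissue, and loaded on a 10x Genomics droplet platform. There were 2 libraries, 1 titled WT and 1 titled IRF8KO, each a pool from 3 female C57BL/6 mice aged 3 months, and the cells had been isolated without enzymes. For the second, the label for genotype also says WT, and no allele is named, so it is called here the library labelled IRF8KO.

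Cells were taken in 3 groups. The first was 3304 WT cells of 3504 barcodes. The second was 5007 cells of the library labelled IRF8KO in which the neutrophil genes Camp, Ngp, S100a8, S100a9, Lcn2 and Ltf made up under 2% of unique molecular identifiers (UMIs, each a tag for 1 captured transcript), called the main IRF8KO cells. The third was the other 98 cells of that library, called the neutrophil-side cells. Together the last groups came to 5105 of 5303 barcodes. The main IRF8KO cells reached at most 0.232% in the 6 neutrophil genes, and the neutrophil-side cells ran from 2.36% to 57.0% with a median of 44.0%. The neutrophil-side cells nearest the cut had 2.36%, 6.82% and 19.5%. No WT cell reached the cut. With 1 library per genotype, no difference has a replicate check, no p-value is given, and all intervals below are exact 95% intervals for counting error only.

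The UMIs summed to 18543061 in WT, 18980263 in the main IRF8KO cells and 842948 in the neutrophil-side cells, with medians of 3204.5, 2933 and 7057.5 UMIs per cell. The median mitochondrial share was 2.09%, 3.70% and 1.05%. Irf8, the gene named in the title, was at 794 CPM (each gene's UMIs scaled to a total of 1e+06) in WT and 669 CPM in the main IRF8KO cells, and UMIs counted near the 3′ end do not check a deletion elsewhere in a gene. Microglia markers were detected in both libraries, 7 of 7 in each, at a summed 24321 CPM in WT and 11380 CPM in the main IRF8KO cells. Border macrophage markers summed to 12.3 CPM in WT, with Ms4a7, Cd163, Lyve1 and F13a1 at 0, and to 2642 CPM in the main IRF8KO cells. Nearly all of the latter came from Pf4 (1462 CPM), Ms4a7 (649 CPM) and Mrc1 (503 CPM). There F13a1 was at 12.9, Cd163 at 9.11 and Cbr2 at 6.11 CPM, and Lyve1 had 2 UMIs. The genotype difference in every gene below therefore moved together with a difference in macrophage markers, and the part of that difference in it was not tested. The libraries shared 5 barcodes.

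Cells take up iron bound to transferrin through the transferrin receptor, and macrophages also recover it from engulfed haem. Inside the cell, iron that is not in use is kept in ferritin, a shell built of heavy and light chains. Ferroportin is the known exporter of iron, and ceruloplasmin is a copper ferroxidase that oxidises the iron that leaves so that transferrin can bind it. Ferritin, ferroportin and the transferrin receptor are controlled after transcription by iron regulatory proteins, which bind a hairpin in the messenger RNA called the iron-responsive element. Bound in the 5′ UTR it holds back translation, and bound in the 3′ UTR it protects the messenger. UMI counts measure the messenger and not the protein.

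The hairpins are shown first because they mark which of the 8 messengers carry the letters that iron regulatory proteins are known to bind. The search took C, 5 bases, CAGTG, a base other than G, and 5 bases able to pair with the first 5 (G with T allowed), on the transcript strand of GENCODE M21 transcripts. Matches were found in 4 of the 8 genes (Fth1, Ftl1, Slc40a1 and Tfrc) and in 222 of 21877 protein-coding genes (1.01%). Capitals mark the 6 bases of the loop, and each stretch of 30 bases lies in 1 exon. The hairpins of the ferritin chains, both in the 5′ UTR, have the same base at 26 of 30 positions.
Fth1, 5′ UTR, GRCm38 chr19:9982732-9982761, + strand: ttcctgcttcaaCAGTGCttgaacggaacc
Ftl1, 5′ UTR, GRCm38 chr7:45459778-45459807, - strand: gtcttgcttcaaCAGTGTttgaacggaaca
Slc40a1, 5′ UTR, GRCm38 chr1:45925464-45925493, - strand: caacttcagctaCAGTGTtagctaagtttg
Tfrc, 3′ UTR, GRCm38 chr16:32631219-32631248, + strand: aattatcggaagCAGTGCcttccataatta
Tfrc, 3′ UTR, GRCm38 chr16:32631598-32631627, + strand: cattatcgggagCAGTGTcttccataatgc
Tfrc, 3′ UTR, GRCm38 chr16:32631663-32631692, + strand: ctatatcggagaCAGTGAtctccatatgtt
Tfrc, 3′ UTR, GRCm38 chr16:32631710-32631739, + strand: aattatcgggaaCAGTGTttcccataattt

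Tfrc had 4 matches in 1 transcript, all in the 3′ UTR, and the other 3 genes had 1 each, ahead of the start codon. No match was found in any annotated coding transcript of Slc11a1, Hmox1, Cp or Trf. A match to these letters is a description of the sequence, not a measured binding site.

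Between the libraries, the storage genes and ceruloplasmin were higher in the main IRF8KO cells, while the other 5 of the 8 genes lay within 2-fold. Fth1 and Ftl1 were each more than 2-fold higher, and Cp went from 20 UMIs to 10359. Of the 8 genes, 3 were at least 2-fold higher, against 5.61% of all 8859 genes with at least 10 CPM in either group. None of the 8 was at least 2-fold lower, against 9.28% of all genes. The 8 were chosen with earlier results of these data known, and Cp reached 10 CPM in the main IRF8KO cells but not in WT. These counts therefore describe the 8 and do not test them as a set. The median log2 ratio of the 8, main IRF8KO over WT, was 0.23, beside -0.28 over all genes. Under the trimmed mean of M-values scaling (TMM), the split of all genes past 2-fold went from 497 higher and 822 lower to 676 higher and 535 lower, and all 8 log2 ratios gained 0.25. In the plot of ratios against level, Cp stood at the 99.9 percentile of all genes, Fth1 at 96.0 and Ftl1 at 95.7.

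**Figure D1:**
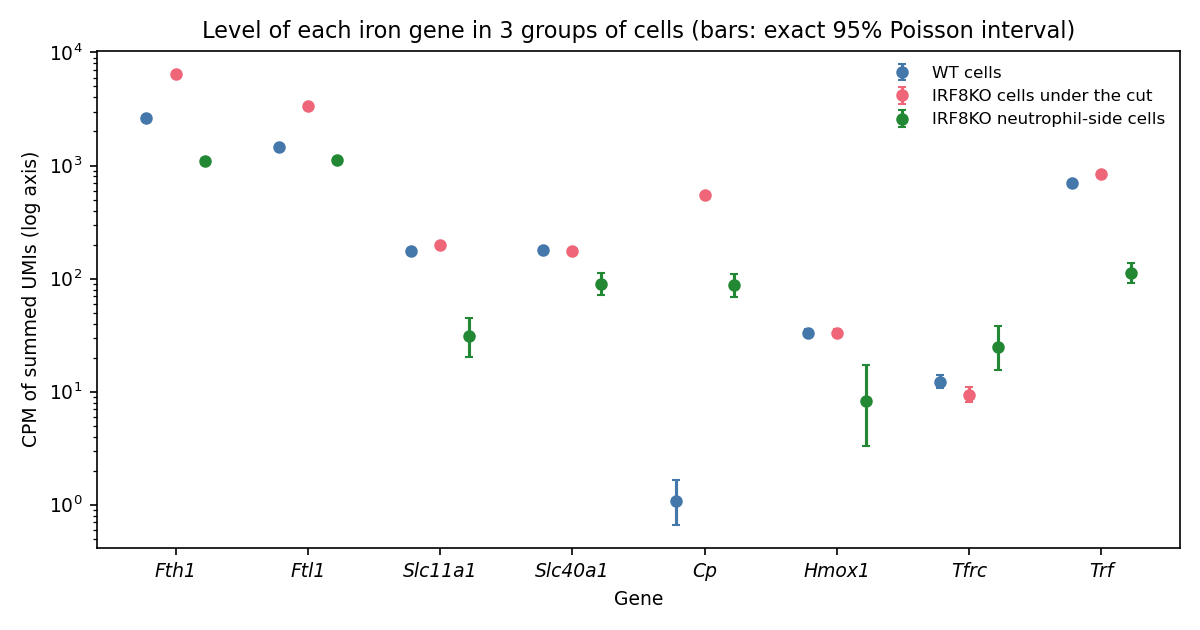
Level of each of the 8 genes (CPM of summed UMIs, log axis) in WT cells, main IRF8KO cells and neutrophil-side IRF8KO cells. Points are sums over cells of 1 library and bars are exact 95% Poisson intervals; Cp spans from 1.08 CPM in WT to 546 CPM in the main IRF8KO cells, and the neutrophil-side cells are lowest for 6 of the 8 genes.

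**Figure D2:**
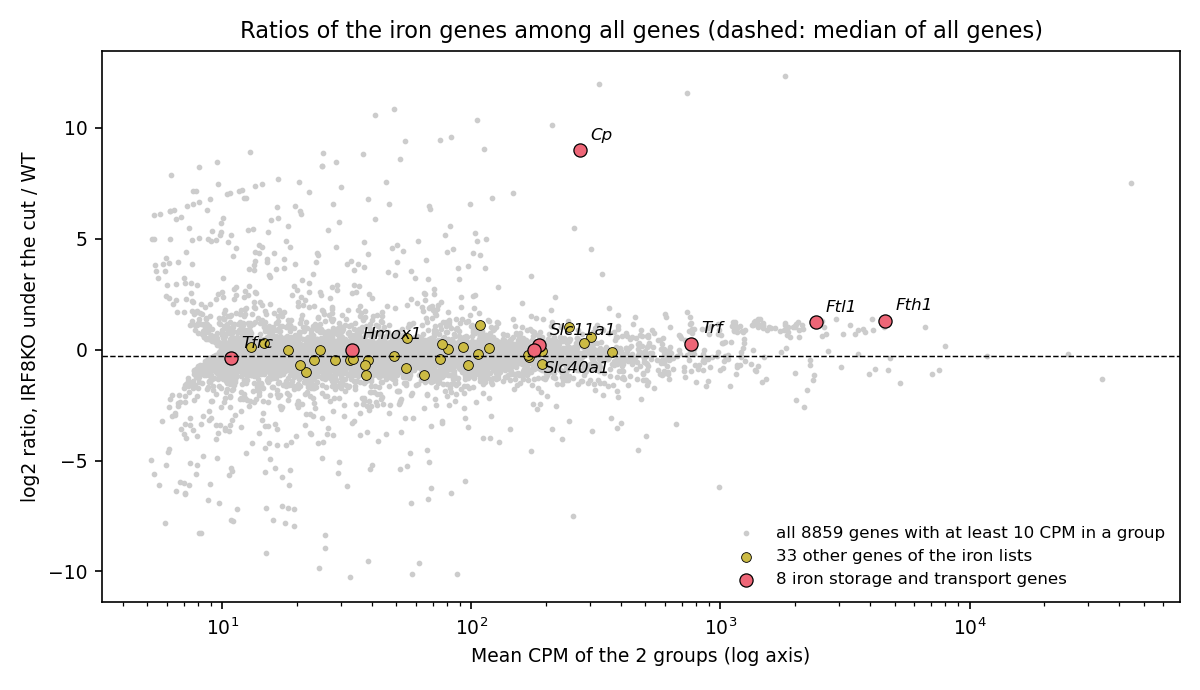
Log2 ratio of main IRF8KO cells over WT cells against the mean CPM of the groups (log axis) for all 8859 genes with at least 10 CPM in either group (grey), 33 other genes of iron handling (yellow) and the 8 genes (red). Fth1 and Ftl1 lie above 1 among the most abundant genes, Cp lies near 9, and the other 5 lie between -0.38 and 0.26.

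Fth1, the ferritin heavy chain, carries the ferroxidase activity of the ferritin shell (ENSMUSG00000024661, GRCm38 chromosome 19 from 9980598 to 9985098, + strand). It was at 2647 CPM (2624 to 2670) in WT, 6496 CPM (6460 to 6532) in the main IRF8KO cells and 1103 CPM (1033 to 1177) in the neutrophil-side cells. The main IRF8KO cells were therefore the highest group and the neutrophil-side cells the lowest. The log2 ratio of main IRF8KO over WT was 1.30 (1.28 to 1.31), a fold of 2.45. To compare cells at equal depth, each was thinned at random to 2000 UMIs, which kept 3019 WT, 4509 main IRF8KO and 97 neutrophil-side cells and left out 285, 498 and 1. The median thinned cell then held 5, 12 and 1 Fth1 UMIs. At least 1 Fth1 UMI was found in 98.6%, 99.9% and 67.0% of thinned cells (98.4%, 99.8% and 92.9% before thinning). The difference lay across the cells rather than in a few: 50.2% (48.7 to 51.7) of main IRF8KO cells held more than 11 UMIs, the 95th percentile of WT cells.

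Ftl1, the light chain, which helps form the iron core (ENSMUSG00000050708, chromosome 7 from 45457944 to 45459884, - strand), had the same order. Its level was 1444 CPM (1427 to 1461) in WT, 3377 CPM (3351 to 3404) in the main IRF8KO cells and 1119 CPM (1048 to 1192) in the neutrophil-side cells. The log2 ratio of main IRF8KO over WT was 1.23 (1.21 to 1.25), a fold of 2.34. The median thinned cell held 3, 6 and 1 Ftl1 UMIs, and 34.1% (32.7 to 35.5) of main IRF8KO cells lay above the WT 95th percentile of 7. A thinned cell held at least 1 Ftl1 UMI in 93.0%, 99.5% and 75.3% of cells (96.6%, 99.4% and 95.9% before thinning). Reads of the near-identical copy Ftl1-ps1 could be split from Ftl1 in the counting, so its level was checked: 18.0 CPM in WT and 41.1 CPM in the main IRF8KO cells. With both summed, the log2 ratio was 1.23 (1.21 to 1.25).

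The ferritin chains kept nearly the same balance between the libraries. The number of Fth1 UMIs per Ftl1 UMI was 1.83 (1.81 to 1.86) in WT and 1.92 (1.91 to 1.94) in the main IRF8KO cells. It was 0.986 (0.900 to 1.08) in the neutrophil-side cells, where 2 cells near the cut held 158 and 151 of the 930 Fth1 UMIs. In the other 96 it was 0.797 (0.716 to 0.887), with Ftl1 the more counted chain. Together the chains made up 0.409% of all UMIs in WT, 0.987% in the main IRF8KO cells and 0.222% in the neutrophil-side cells. The ratio between the libraries was present at every depth: in cells with 1000 to 2000, 2000 to 4000, 4000 to 8000 and at least 8000 UMIs the log2 ratio was 1.11, 1.28, 1.45 and 1.19 for Fth1 and 1.13, 1.14, 1.38 and 1.15 for Ftl1.

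**Figure D3:**
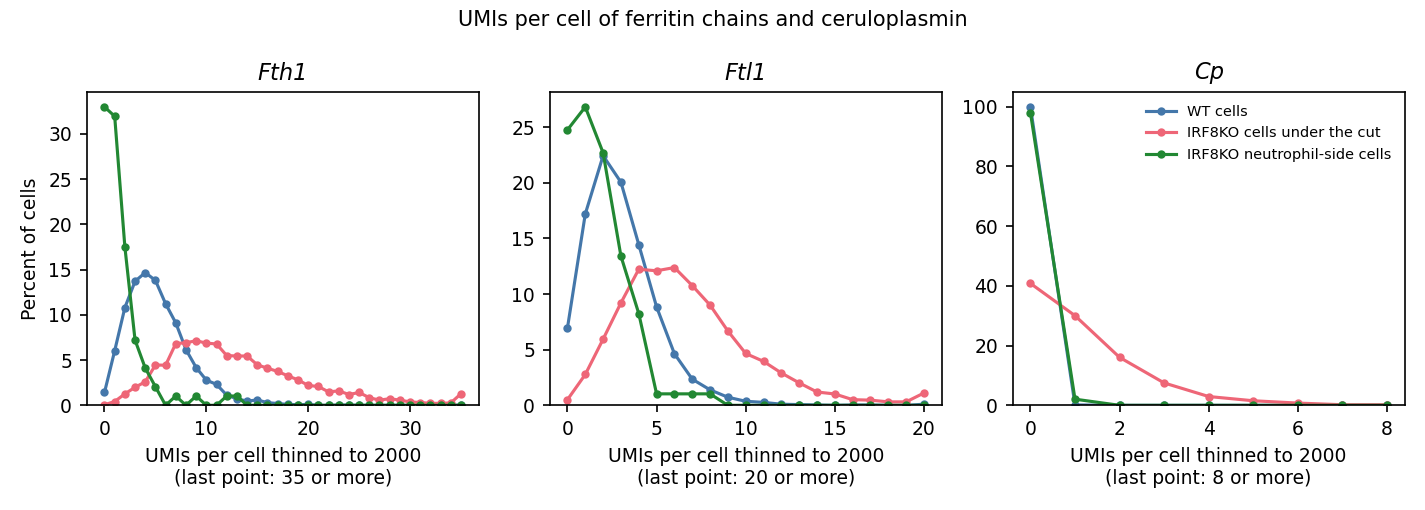
Percent of cells (vertical axis) holding each number of Fth1, Ftl1 and Cp UMIs (horizontal axis) after thinning to 2000 UMIs, in WT, main IRF8KO and neutrophil-side cells. The Fth1 and Ftl1 distributions of the main IRF8KO cells are shifted to the right of WT and overlap it. Above the WT 95th percentile lie 50.2% of main IRF8KO cells for Fth1 and 34.1% for Ftl1. For Cp 59.2% of main IRF8KO cells hold at least 1 UMI, against 0.132% of WT and 2.06% of neutrophil-side cells.

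Among the transporters, the values of the libraries lay close together. Slc11a1, a transporter of iron and other divalent metals in the phagosome membrane of macrophages (ENSMUSG00000026177, chromosome 1 from 74375195 to 74386062, + strand), was at 174.6 CPM (169 to 181) in WT, 199.8 CPM (193 to 206) in the main IRF8KO cells and 30.8 CPM (20.1 to 45.2) in the neutrophil-side cells. Its log2 ratio of main IRF8KO over WT was 0.19 (0.13 to 0.26). A thinned cell held a Slc11a1 UMI in 26.9%, 31.3% and 2.06% of cells (45.9%, 44.3% and 9.18% before thinning).

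Slc40a1, ferroportin (ENSMUSG00000025993, chromosome 1 from 45908068 to 45926523, - strand), was at 180.1 CPM (174 to 186) in WT, 176.3 CPM (170 to 182) in the main IRF8KO cells and 90.2 CPM (71.0 to 113) in the neutrophil-side cells. The interval of its log2 ratio between the libraries, -0.03 (-0.10 to 0.04), includes 0. Its direction depended on the scaling, with a value of 0.22 under TMM. It also differed by depth, from 0.68 (0.27 to 1.11) in cells of 1000 to 2000 UMIs to -0.24 (-0.40 to -0.09) in cells of 4000 to 8000. A thinned cell held a Slc40a1 UMI in 29.0%, 26.5% and 8.25% of cells (47.7%, 38.9% and 38.8% before thinning), and the mean over all possible draws was 12.3% in the neutrophil-side cells.

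Tfrc, the transferrin receptor (ENSMUSG00000022797, chromosome 16 from 32608920 to 32632794, + strand), was counted in few cells. It was at 12.3 CPM (10.8 to 14.0) in WT, 9.43 CPM (8.10 to 10.9) in the main IRF8KO cells and 24.9 CPM (15.4 to 38.1) in the neutrophil-side cells, from 228, 179 and 21 UMIs. It was the only one of the 8 genes whose highest level was in the neutrophil-side cells. The log2 ratio of main IRF8KO over WT was -0.38 (-0.67 to -0.09), which lay 0.10 below the median of all genes. A thinned cell held a Tfrc UMI in 2.25%, 1.86% and 3.09% of cells (6.08%, 3.22% and 18.4% before thinning). The neutrophil-side share depended on the draw: a second draw gave 9.28% (4.33 to 16.9), and the mean over all possible draws was 4.54%, beside 2.49% in WT and 1.75% in the main IRF8KO cells.

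Trf, transferrin, the carrier that the receptor binds (ENSMUSG00000032554, chromosome 9 from 103204001 to 103230444, - strand), was found in most cells of both libraries. It was at 694 CPM (682 to 706) in WT, 834 CPM (821 to 847) in the main IRF8KO cells and 112.7 CPM (91.2 to 138) in the neutrophil-side cells. Its log2 ratio of main IRF8KO over WT was 0.26 (0.23 to 0.30), and a Trf UMI was found in 72.0%, 76.4% and 4.12% of thinned cells (85.6%, 85.9% and 16.3% before thinning). For the neutrophil-side cells a second draw gave 10.3%, and the mean over all possible draws was 7.18%. In the brain Trf is best known from oligodendrocytes. The 5 oligodendrocyte markers summed to 71.3 CPM in WT and 58.0 CPM in the main IRF8KO cells, with Cldn11 at 0 in the main IRF8KO cells.

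Hmox1, haem oxygenase 1, which frees iron from haem (ENSMUSG00000005413, chromosome 8 from 75093621 to 75100589, + strand), was at 33.2 CPM (30.6 to 36.0) in WT and 33.2 CPM (30.7 to 35.9) in the main IRF8KO cells, a log2 ratio of 0.00 (-0.16 to 0.16). The neutrophil-side cells had 8.30 CPM (3.34 to 17.1) from 7 UMIs. A single main IRF8KO cell held 62 of the group's 631 Hmox1 UMIs. Without the highest cell of each group the log2 ratio was -0.14, and under TMM it was 0.25, so its direction is not set by these data. A thinned cell held a Hmox1 UMI in 6.19%, 5.59% and 2.06% of cells (14.3%, 9.81% and 5.10% before thinning).

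Cp, ceruloplasmin (ENSMUSG00000003617, GRCm38 chromosome 3 from 19957054 to 20009145, + strand), separated the libraries. It was at 1.08 CPM (0.659 to 1.67) in WT from 20 UMIs, 546 CPM (535 to 556) in the main IRF8KO cells from 10359 UMIs and 87.8 CPM (68.9 to 110) in the neutrophil-side cells from 74 UMIs. The log2 ratio of main IRF8KO over WT was 8.98 (8.36 to 9.69), a fold of 506 (327 to 829). A Cp UMI was found in 0.132% (0.0361 to 0.339) of thinned WT cells, 59.2% (57.7 to 60.6) of thinned main IRF8KO cells and 2.06% (0.251 to 7.25) of thinned neutrophil-side cells. A second draw gave 5.15% in the neutrophil-side cells, and the means over all possible draws were 0.150%, 58.5% and 5.20%. Before thinning the shares were 0.545%, 71.4% and 11.2%. The ratio was large at each depth, from the shallowest to the deepest cells. The log2 values were 7.24 (5.38 to 10.3), 10.03 (8.49 to 12.3), 8.81 (7.45 to 10.7) and 8.79 (7.94 to 9.79). They rest on 2, 3, 4 and 11 WT UMIs, and their intervals overlap.

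Hps3 overlaps Cp on the opposite strand and was at 207 CPM in WT and 139 CPM in the main IRF8KO cells, lower where Cp was higher. Other sources of Cp in brain are astrocytes and the choroid plexus. The 5 astrocyte markers summed to 217 CPM in WT and 33.0 CPM in the main IRF8KO cells, with Slc1a3 holding 3939 of 4019 UMIs in WT and 506 of 626 in the main IRF8KO cells. There Aldoc had 70 and Slc1a2 41 UMIs, and Aqp4 had 3 UMIs in WT and 1 in the main IRF8KO cells. The choroid plexus marker Ttr had 4 UMIs in the main IRF8KO cells, and Folr1 and Kl had none. In WT, 543 of the 554 choroid plexus UMIs lay in 1 cell.

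The promoter of Cp is shown because this gene has the largest ratio of the 8. RefSeq promoter windows (GRCm38.p6) were given for 5 of the 8 genes, and the 250 bases before each start were searched on both strands for 4 motifs, chosen with the results known. These were the PU.1-IRF composite motif, GGAA and GAAA with any 2 bases between them (in 2.30% of 32851 windows), the interferon response motif, GAAA and GAAA with any 2 bases between them (2.98%), the antioxidant response letters TGACNNNGC (10.2%) and the C/EBP letters TTGCNNAA (9.56%). The first motifs share letters, so a single stretch can match both. No window of the 5 genes held the first 3. The C/EBP letters were found in 1 window of Fth1, at positions -129 and -58 from the start, and in 1 of the 2 windows of Cp, at position -70 from the second listed start. The window at the first listed start of Cp, which held none of the 4, has a GC content of 37.2%, beside a median of 52.4% over the 32851 windows. Those windows did not cover every chromosome.
Cp, GRCm38.p6 chr3:19956804-19957053, + strand: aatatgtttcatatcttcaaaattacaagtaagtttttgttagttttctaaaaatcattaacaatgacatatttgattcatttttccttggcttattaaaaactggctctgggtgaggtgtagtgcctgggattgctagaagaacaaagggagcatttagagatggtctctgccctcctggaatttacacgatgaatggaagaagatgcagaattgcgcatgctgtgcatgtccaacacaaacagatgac

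The IRF8KO cells that hold Cp numbered 3585 of 5105 (70.2%): 3574 main cells and 11 neutrophil-side cells. In the main cells Cp was spread widely at low counts. Of them, 1433 held no Cp UMI, 1257 held 1, 849 held 2, 532 held 3, 344 held 4 and 592 held 5 or more, with a maximum of 34. The 50 cells with most held 8.51% of the UMIs. Cells with Cp were somewhat deeper than those without, with medians of 3054.5 and 2694 UMIs, and had nearly the same mitochondrial share, 3.71% and 3.67%.

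At equal depth, the main IRF8KO cells with and without Cp differed modestly in the other iron genes. This comparison covers 2669 thinned cells with Cp and 1840 without, and is a description, since the cells were sorted by Cp. Fth1 was lower with Cp, at 11.9 UMIs per cell against 14.6, a log2 ratio of -0.29 (-0.32 to -0.27). Ftl1 was lower by less, at -0.17 (-0.20 to -0.13). Slc40a1, the exporter, was higher with Cp, at 0.27 (0.12 to 0.42). The intervals of Hmox1 and Tfrc included 0. Slc11a1 was lower with Cp at -0.22 (-0.35 to -0.08) and Trf at -0.09 (-0.16 to -0.02). The microglia markers were mixed: P2ry12 was at 0.35 (0.27 to 0.42), Fcrls at 0.18, Cx3cr1 at 0.12 and Siglech at 0.08, Tmem119 was lower at -0.08 (-0.15 to -0.02), and the interval of Sall1 included 0. Of the border macrophage markers Mrc1 was higher at 0.29 (0.20 to 0.38). Pf4 was lower at -0.27 (-0.32 to -0.22) and Ms4a7 at -0.19 (-0.27 to -0.12). The intervals of Cd163, Cbr2 and F13a1 included 0, and Lyve1 had no UMIs.

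The 11 neutrophil-side cells with Cp were deeper than the other 87, with medians of 11473 and 6675 UMIs, which raises the chance of holding any gene, and they differed in the share of macrophage genes. Their share of UMIs in Apoe, a lipid carrier gene that took a median of 8.51% of UMIs in the main IRF8KO cells with Cp, ran from 0.959% to 6.80% with a median of 2.89%. In the 87 without Cp the median was 0.0462%, and 86 of them lay under 1%. The highest of the 87 was at 1.66%, so the ranges overlapped. Each of the 11 held C1qa, a complement gene of macrophages, at 2 to 202 UMIs, against a median of 0 in the others. Their share in the 6 neutrophil genes was also lower, with a median of 27.8% against 45.6%. Of the 74 Cp UMIs, 49 lay in 2 cells that clustered with main IRF8KO cells. The part of doublets or free RNA in these counts was not tested.

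**Figure D4:**
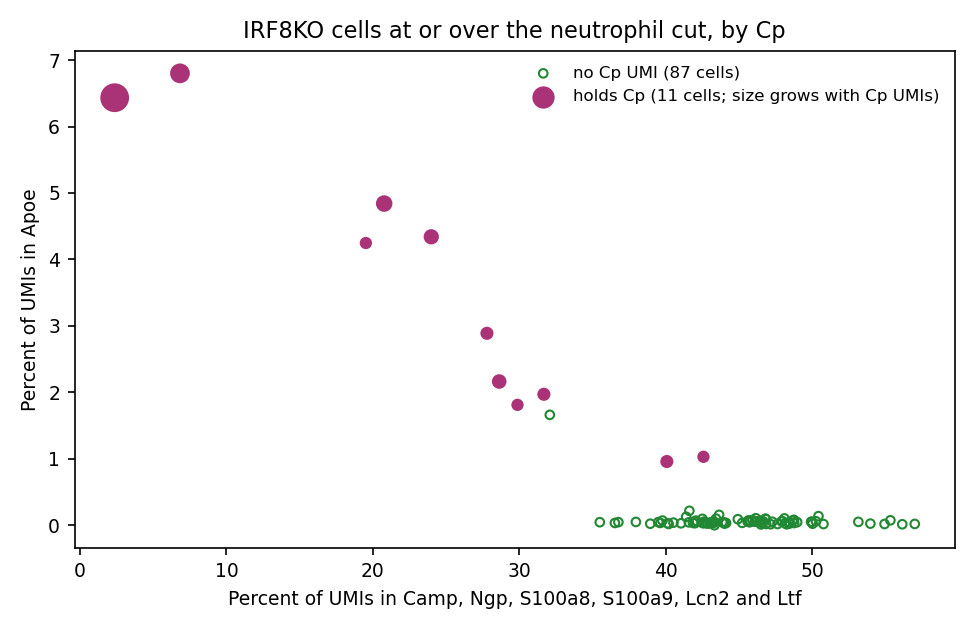
Share of UMIs in Apoe (vertical axis, percent) against the share in the 6 neutrophil genes (horizontal axis, percent) for the 98 neutrophil-side IRF8KO cells; filled points hold Cp and grow with its UMIs. The Apoe shares of the 11 cells with Cp, 0.959% to 6.80%, are mostly higher but overlap the others. Of the 87 others, 86 lie under 1%, and the highest is at 1.66%.

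The WT cells with Cp numbered 18, of which 16 held 1 UMI and 2 held 2. They were deep, with a median of 15235.5 UMIs against 3198.5 in the other WT cells. None of their barcodes occurred in the library labelled IRF8KO. Within clusters, which were made without Cp, the gene was also split by library: 12 of the 13 IRF8KO cells that fell into mostly WT clusters held Cp, and 0 of the 7 WT cells in mostly IRF8KO clusters did.

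Between the neutrophil-side and the main IRF8KO cells, 6 of the 8 genes were at least 2-fold lower, against 44.9% of all 8798 genes, and 1 was at least 2-fold higher, against 11.4%. Because the 8 were chosen with earlier results of these data known, these counts do not test them as a set. The median log2 ratio was -2.28 over the 8 and -0.85 over all genes. It was -2.56 (-2.65 to -2.46) for Fth1, -1.59 (-1.69 to -1.50) for Ftl1 and -2.89 (-3.19 to -2.60) for Trf. Slc11a1 was at -2.70, Cp at -2.64 and Hmox1 at -2.00. Slc40a1 was at -0.97 (-1.31 to -0.64), just inside 2-fold, and Tfrc at 1.40 (0.67 to 2.06). The cells nearest the cut carried much of what remained: with the cut at 10%, which moves 2 cells, Trf was at -4.03, Cp at -4.06, Slc11a1 at -4.08 and Fth1 at -2.99. Under TMM, Ftl1 was at -0.92 and came inside 2-fold, and the split of all genes went from 1002 higher and 3950 lower to 1772 higher and 2053 lower.

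Among the main IRF8KO cells, storage and ceruloplasmin ran in opposite directions across clusters. Clusters were made from both libraries without the 8 genes. Cluster 9, with 5 neutrophil markers among its 10 leading genes, is called neutrophil-like. Of these markers Ngp, Camp, Lcn2 and S100a8 were also used in the cut, and Elane was not. All 96 cells of that cluster are neutrophil-side cells, so its name follows largely from the cut. The other clusters are given by number and leading genes. Cluster 7 (2357 main IRF8KO cells, led by Cxcl2, Runx3 and Cd300ld, with Ms4a7 and Lilrb4a) had more Fth1 than cluster 5 (2195 cells, led by Ttr, Cck and Cox6a2, with Clec12a, Igf1 and Mrc1), at 7497 and 4745 CPM, a log2 ratio of 0.66 (0.64 to 0.68). Ftl1 was higher by 0.35 (0.32 to 0.38), Slc11a1 by 0.76 (0.65 to 0.88) and Trf by 0.33 (0.28 to 0.38). Cp was lower, at 449 against 714 CPM, a log2 ratio of -0.67 (-0.73 to -0.61), and Slc40a1 was lower at -0.52 (-0.63 to -0.42). The intervals of Hmox1 and Tfrc included 0. The lead of Ttr in cluster 5 came from 1 WT cell placed there with 542 UMIs, and the 2195 main IRF8KO cells held 1. Cluster 6 (398 cells, led by interferon-induced genes such as Cxcl10 and Rsad2) lay between them, with Fth1 at 6102 CPM and Cp at 600 CPM. Cluster 8 (44 main cells, led by H2-Eb1) had Fth1 at 6792 CPM and Cp at 501 CPM.

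For Fth1 the lowest cluster of main IRF8KO cells was cluster 5, at 4745 CPM (4690 to 4802). The highest WT cluster was cluster 4, at 4072 CPM (3799 to 4359). For Cp they were cluster 7 at 449 CPM (437 to 462) and cluster 3 at 10.5 CPM (0.266 to 58.4), the latter from 1 UMI. In Ftl1 the intervals overlapped, with WT cluster 4 at 2777 CPM (2552 to 3016) and cluster 5 at 2872 CPM (2829 to 2916). The share of all genes split in this way was not counted, and the intervals leave out the spread between cells. The largest WT clusters, 1 and 2, had Fth1 at 2664 and 2618 CPM and Ftl1 at 1518 and 1375 CPM. Cluster 4, 46 WT cells led by chemokine and immediate early genes such as Ccl4 and Egr1, had the highest WT values, with Fth1 at 4072 CPM, Ftl1 at 2777 CPM and Hmox1 at 142.8 CPM. Its Hmox1 was the highest of all 9 clusters. Cluster 3, 70 shallow WT cells, had the lowest WT value of Fth1, 661 CPM. Cluster 9 had Fth1 at 814 CPM, Trf at 51.1 CPM and Cp at 32.8 CPM.

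**Figure D5:**
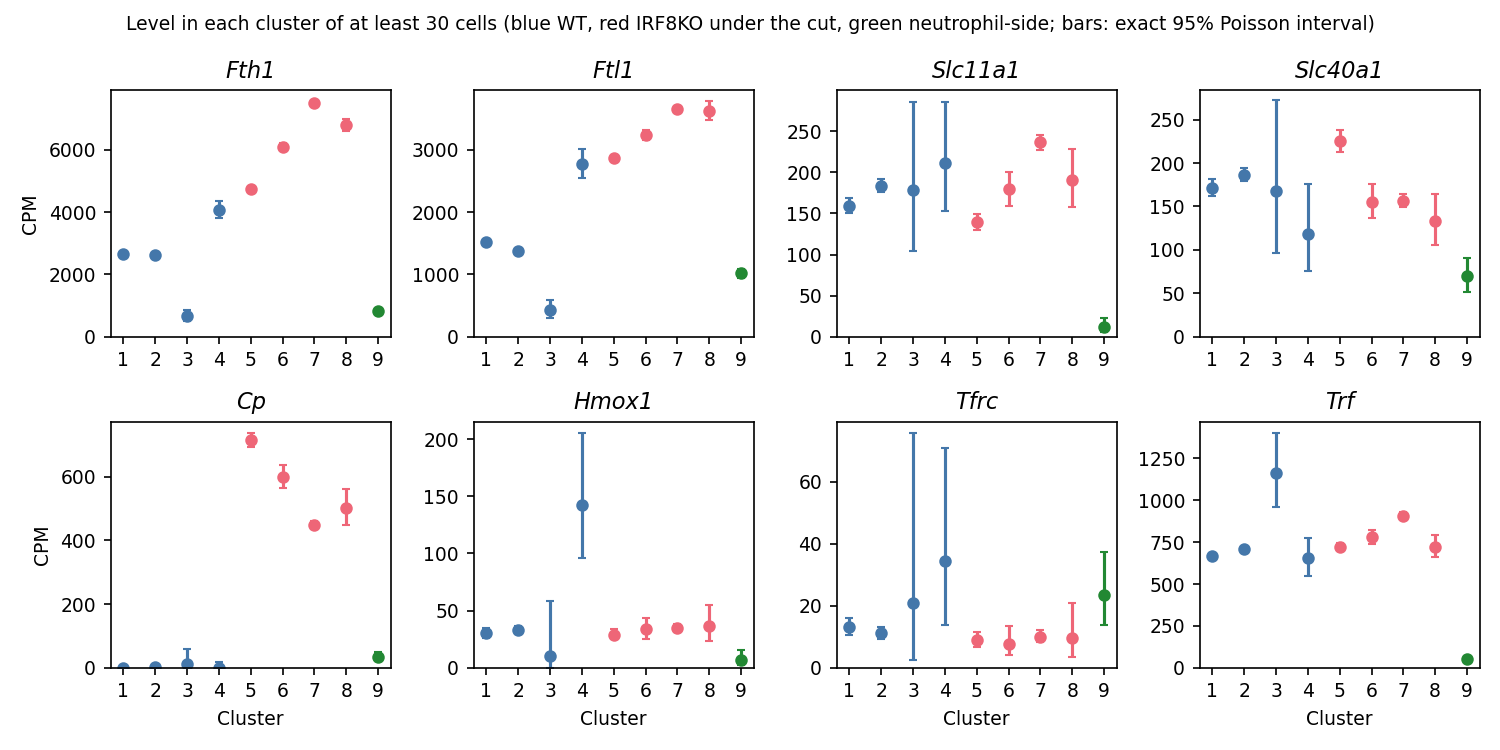
Level (CPM) of each of the 8 genes in clusters 1 to 9, from summed UMIs of 1 group per cluster with exact 95% Poisson intervals; WT in blue, main IRF8KO in red and neutrophil-side in green. In the red clusters Fth1 is lowest and Cp highest in cluster 5, and Hmox1 is highest in the small WT cluster 4.

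Across single main IRF8KO cells, the gene most like each ferritin chain was the other. Over 4509 thinned cells, the Pearson correlation of log-normalised counts was 0.37 between Fth1 and Ftl1, 0.35 between Fth1 and Rps24 and 0.34 between Fth1 and Eef1a1. For Ftl1 the next were Eef1a1 at 0.23 and Tpt1 at 0.20. For Cp the highest was Cst3 at 0.23, and its correlation with Fth1 was -0.23. In 3019 WT cells Cp was left out because under 2% of them held it, and no gene reached 0.2 with any other member. There too the gene most like Ftl1 was Fth1 (0.15). Fth1 was more like Eef1a1 (0.19), Rpsa (0.17) and Rps12 (0.16) than Ftl1. These cells share a library and a depth, and the counts are sparse, so the values describe them only.

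Of 49 other genes of iron handling, 33 had at least 10 CPM in either library; 2 were at least 2-fold higher in the main IRF8KO cells (5.61% of all genes were), 3 at least 2-fold lower (9.28% of all genes), and 28 lay between. These counts are near the shares over all genes, and under TMM they were 2 and 0. Their median log2 ratio was -0.26, beside -0.28 over all genes. The higher ones were Blvrb, a biliverdin reductase of haem breakdown, at 1.09, a fold of 2.13, and the peroxiredoxin Prdx1 at 1.01 (0.94 to 1.07). The lower ones were the mitochondrial iron importer Slc25a37 at -1.15 (-1.27 to -1.02), the haem and folate transporter Slc46a1 at -1.15 (-1.31 to -0.98) and the metal importer Slc39a8 at -1.01 (-1.22 to -0.80).

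Genes that act on ferritin and its hairpin were between these limits. Aco1, an iron regulatory protein, was at -0.70 (-0.92 to -0.49). The iron chaperone Pcbp1 was at -0.66 (-0.73 to -0.59), and Ncoa4, the receptor that brings ferritin to degradation, was at 0.08 (-0.01 to 0.16). Nfe2l2, which encodes the transcription factor NRF2, was at 0.55 (0.50 to 0.61). The 6 listed NRF2 targets with at least 10 CPM went both ways, with a median of -0.17. The highest was Prdx1, given above, and the lowest was Gclc, of glutathione synthesis, at -0.83 (-0.96 to -0.70). Cisd1 of the mitochondrial outer membrane was at -0.49 and the importer Slc39a14 at 0.30. None of the other genes listed for export or its control (Heph, Hephl1 and Hamp) reached 10 CPM.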

How the data were processed

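Per the file headers, the deposited matrices were written by software version 3.1.0, and their values are raw UMI counts, made by the authors by counting tagged molecules for each gene in each barcode. Per the submitters' processing notes, bcl2fastq, Cell Ranger 3.1, Scanpy and the build mm10 were used. The labels also name a full-length RNA kit, but the counts have the form of droplet data. Cells with at least 1000 UMIs, 500 genes and at most 10% mitochondrial UMIs were kept (scipy 1.17.1). No doublet caller was run; an alternative left out the 5% of cells with most UMIs. UMIs were summed per group and divided by the group's total (CPM). Intervals are Poisson for CPM, conditional binomial for ratios and Clopper-Pearson for shares. Ratios were tested on simulated Poisson counts, which do not hold the spread between cells. Thinning was tested on a part of the WT cells. Clusters used scanpy 1.11.5 (2000 variable genes, 30 components, 15 neighbours, Leiden resolution 0.5), and TMM factors edgeR 4.0.16. Positions came from GENCODE M21 on GRCm38 (30934 of 31053 genes matched). The 8 genes, the lists and the motifs were chosen with earlier results of these data known. Named genes were the 8, the 2 largest ratios per list, correlated genes with r of at least 0.2 and markers; Irf8, Apoe, C1qa, Hps3, Ftl1-ps1 and cluster-leading genes were named beyond that rule. The single value of 1 microglia marker is not reported here.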

Additional observations from a re-analysis of the deposited data

Results flagged for a closer look

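Barcodes that failed the cell filter took no part in the comparisons, yet showed the same genes. In the 198 IRF8KO barcodes left out, Fth1 was at 3140 CPM (549 UMIs) and Cp at 778 CPM (136 UMIs in 81 barcodes). In the 200 WT barcodes left out, Fth1 was at 1190 CPM and Cp had 1 UMI. The values were singled out because they exceed those of the WT library in data that the report does not use.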

How the results depend on the processing

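The count of the 8 genes at least 2-fold higher (3) or lower (0) in main IRF8KO over WT cells was the same under each of the 11 alternatives, and no called ratio changed sign. Of these, the 1% cut gives the same groups of cells, and the 5% and 10% cuts move at most the cells at 2.36% and 6.82%. For this comparison the sameness under those cuts was therefore largely set in advance. The log2 ratio ran from 1.24 to 1.55 for Fth1, 1.18 to 1.48 for Ftl1, 8.04 to 9.24 for Cp, 0.25 to 0.52 for Trf, 0.19 to 0.45 for Slc11a1 and -0.49 to -0.13 for Tfrc; it crossed 0 for Slc40a1 (-0.08 to 0.22) and Hmox1 (-0.19 to 0.25). In neutrophil-side over main IRF8KO cells, 5 to 7 of the 8 were at least 2-fold lower. Counts over all genes moved more. For main IRF8KO over WT, TMM gave 535 lower (from 822), no minimum CPM gave 2287 higher and 2955 lower, and a minimum of 50 CPM gave 229 and 396. For neutrophil-side over main IRF8KO (1002 higher, 3950 lower), TMM gave 1772 and 2053, totals without the 10 most abundant genes 1738 and 2625, no minimum CPM 6036 higher, and a minimum of 50 CPM 530 and 1576. The share of main IRF8KO cells with Cp (59.2%) was 71.4% unthinned, 39.5% thinned to 1000 UMIs, 57.7% with another seed of the thinning and 58.5% as the mean over all draws. Main IRF8KO cells with at least 2 Cp UMIs numbered 2317, and 2 neutrophil-side cells held Cp after thinning (5.15% of them with the second seed, from 2.06%; Tfrc went from 3.09% to 9.28% and Trf from 4.12% to 10.3%). The lower minimums test more genes, and thinning and the UMI minimum lower detection by construction. In ratios a sum of 0 was set to 3 counts, which is 3.56 CPM in the neutrophil-side cells and 0.158 CPM in the main IRF8KO cells. With no minimum CPM, a gene with no UMI in a group can therefore be counted as higher in that group. The counts of 6036, 2287 and 2955 can hold such genes, whose number was not counted. Otherwise the cause of the shifts was not tested. The 10% cut, the second seed, the mean over draws and leaving out each gene's highest cell were added after seeing the data. The Apoe limit of 1% was also set after the values were seen. No paired analysis was possible because each group is 1 library. With 98 neutrophil-side cells, Hmox1 and Tfrc there rest on 7 and 21 UMIs.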
